A study of Mus musculus with 16 samples.

Results

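The 8 genes described are mouse orthologues of Alzheimer risk genes that lie outside the Trem2, App and apolipoprotein groups: Bin1, Picalm, Sorl1, Cd2ap, Ptk2b, Fermt2, Abi3 and Mef2c. They were taken by gene symbol from the 24058 symbols listed for each library, and all 8 were found. Their level was compared in cortical tissue from 16 mice, 4 for each of 4 genotypes, with 2 females and 2 males per genotype. Knockouts (P301S+ TREM2-/-) carried the P301S tau transgene and no intact Trem2 allele, and heterozygotes (P301S+ TREM2+/-) carried the transgene and 1 intact allele. P301S+ TREM2+/+ mice carried the transgene with both Trem2 alleles, and control mice (TREM2+/+) carried both Trem2 alleles without the transgene. All mice were 8 to 9 months old and on a strain given as C57BL/6; C3. Neither the promoter of the transgene nor the kind of Trem2 allele is named in the sources used. The study asked what the loss of 1 or both Trem2 alleles does in a mouse with mutant tau, and the same libraries show whether risk genes that act elsewhere in the cell or the brain shifted with tau or with Trem2 dose.

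Human genetic studies have tied these genes to late-onset Alzheimer disease, mostly through variants outside the coding sequence that are thought to act on expression. Several act in endocytosis and endosomal sorting, the route by which neurons and glia take up membrane proteins, including the amyloid precursor protein, and send them to recycling or to the lysosome. Others link integrins and receptors to the actin cytoskeleton, and Mef2c is a transcription factor of neurons and microglia.

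Libraries were made from total RNA with a QuantSeq kit, which reads a short stretch near the 3' end of polyadenylated transcripts, and each value is an RPKM, a read count scaled by gene length and by the reads of its library. Because the reads come from 3' ends, RPKM was compared between libraries for 1 gene and not between genes. Depth was 2.55 to 14.47 M reads. Trem2 itself had 1.44, 1.71, 1.46 and 3.75 RPKM in the knockouts, against 34.0, 30.1, 29.6 and 14.3 RPKM in P301S+ TREM2+/+ mice, and it was the 1 gene that passed limma's test for complete loss (log2 difference -3.17, SE 0.43, adjusted p = 0.04). It ranged from 4.50 to 25.2 RPKM in heterozygotes, highest in replicate 3, and from 7.35 to 20.2 RPKM in controls. Prnp, which encodes the prion protein, was the 1 gene that passed in all 12 tau transgenic mice against the 4 controls (log2 difference 1.57, SE 0.19, limma adjusted p = 0.0113), and it was named after its value was seen. Control replicate 3, a female, stood apart: it was below every other library for 41.6% of the 12015 genes tested and above every other library for 24.9%. Results of the 8 genes against controls are therefore given with and without it. Both P301S+ TREM2+/+ females stood apart to a lesser degree. Xist was at 0.40 RPKM in heterozygote replicate 3, a male, against 0.00622 to 0.0879 RPKM in the other males and 2.84 to 6.68 RPKM in the females. Ddx3y, a gene of the Y chromosome, was at 22.4 RPKM in that library, which also had the most Trem2 of the heterozygotes. The cause was not tested.

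Per-library values below run from replicate 1 to 4. Replicates 1 and 2 were female and 3 and 4 male in the tau transgenic genotypes, while in controls 2 and 3 were female and 1 and 4 male. Tests are from 1 limma model of log2(RPKM + 1) over all 16 libraries, with Benjamini-Hochberg adjustment over all genes tested. Differences are on that scale, which understates the change of genes at low levels such as Cd2ap and Abi3. The labels give separate mice, so the p-values measure the spread between mice.

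None of the 8 genes passed the adjusted threshold of 0.05 in any comparison of genotypes, and in no comparison did the groups of any of the 8 fail to overlap. In P301S+ TREM2+/+ mice against controls, 0 of 8 passed, as did 0 of the 12015 genes tested (0%), and 4.83% of genes had groups that did not overlap. An unadjusted p under 0.05 was reached by 3 of the 8, against 13.8% of all genes. Of these, Picalm and Sorl1 had a higher mean, as did 9.12% of all genes at that p, and Ptk2b a lower one, as did 4.67%. With control replicate 3 left out, 2 of the 8 (Picalm and Ptk2b) reached it, against 21.2% of all genes. The differences that stood out within the 8 were against controls, and they were smaller without control replicate 3 for Bin1, Picalm, Sorl1, Ptk2b and Fermt2. Between Trem2 genotypes, differences on the log2(RPKM + 1) scale reached -0.40, for Cd2ap in knockouts against heterozygotes. With a pseudocount of 0.1 that value was -0.51 and the one for Abi3 -0.58, and by limma-voom on recovered reads they were -0.51 and -0.53, each with an adjusted p of 1.

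**Figure D1:**
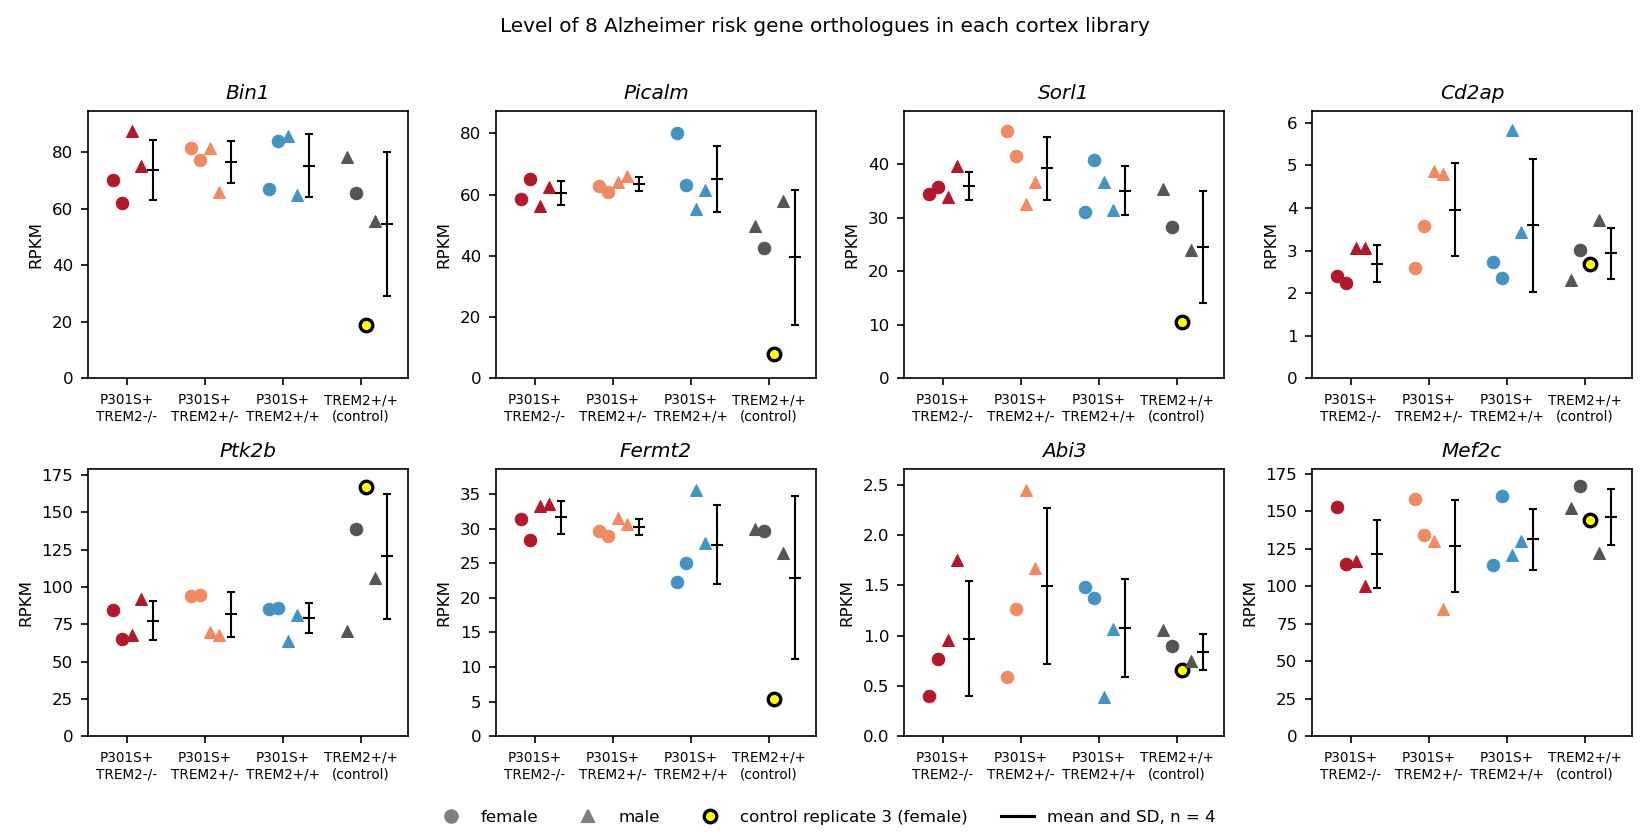
RPKM of each of the 8 genes (vertical axes, linear from 0) in each of the 16 libraries, grouped by genotype; circles are females, triangles males, the yellow circle is control replicate 3, and the bars are the mean and SD of 4 mice. Control replicate 3 lay under every other library for Bin1, Picalm, Sorl1 and Fermt2 and above every other library for Ptk2b.

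Bin1 encodes amphiphysin 2, which bends and tubulates membranes in endocytosis and recycling; in brain it is made by neurons, and strongly by oligodendrocytes. Bin1 was at 70.0, 62.1, 87.4 and 75.0 RPKM in knockouts, at 81.3, 77.1, 81.6 and 66.0 RPKM in heterozygotes, at 66.9, 83.8, 85.6 and 64.7 RPKM in P301S+ TREM2+/+ mice and at 78.4, 65.4, 18.9 and 55.6 RPKM in controls. The 3 tau transgenic genotypes covered much the same range, and control replicate 3 was the lowest library by far. In P301S+ TREM2+/+ mice Bin1 averaged 75.3 ± 11 RPKM, against 54.6 ± 25.5 RPKM in controls (SD, n = 4 each), differing by 0.62 on the log2 scale (SE 0.31, adjusted p = 0.382 by limma). When control replicate 3 was left out, the control mean was 66.4 ± 11.4 RPKM (n = 3) and the difference 0.19 (SE 0.15, limma adjusted p = 0.494). The 8 oligodendrocyte markers, none of them at 0, summed to 3320 to 4820 CPM (reads scaled to the library total and not by length) in knockouts, 3010 to 3710 in heterozygotes, 2460 to 3670 in P301S+ TREM2+/+ mice and 1740 to 2730 in controls, where the lowest value was control replicate 3. The part of oligodendrocyte content in the Bin1 values was not tested. In these bulk samples fewer cells of a type and less RNA per cell cannot be told apart.

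Picalm encodes the clathrin assembly protein CALM, which recruits clathrin and SNARE proteins to budding vesicles; the gene lies on chromosome 7 (chr7:90130213-90213465, plus strand, GRCm38). Picalm was at 58.7, 65.0, 56.3 and 62.6 RPKM in knockouts, at 63.0, 60.8, 64.1 and 66.2 RPKM in heterozygotes, at 80.3, 63.2, 55.4 and 61.4 RPKM in P301S+ TREM2+/+ mice and at 49.7, 42.6, 7.87 and 57.9 RPKM in controls. Only control replicate 4 lay within the range of the tau transgenic mice (55.4 to 80.3 RPKM); the other 3 controls were below it. P301S+ TREM2+/+ mice averaged 65.1 ± 10.7 RPKM and controls 39.5 ± 22.0 RPKM (SD, n = 4 each), differing by 1 on the log2 scale (SE 0.42, unadjusted p = 0.0303, limma adjusted p = 0.327). All 12 tau transgenic mice averaged 63.1 ± 6.36 RPKM, and their difference from the 4 controls was 0.96 (SE 0.34, unadjusted p = 0.013, limma adjusted p = 0.284). Without control replicate 3 the control mean was 50.1 ± 7.66 RPKM (n = 3), and the same difference was 0.33 (SE 0.11, unadjusted p = 0.0108, limma adjusted p = 0.424). P301S+ TREM2+/+ mice alone then differed from controls by 0.37 (SE 0.13, unadjusted p = 0.015, limma adjusted p = 0.164). The size of the Picalm difference thus depended on that library, and its sign did not.

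Sorl1 encodes the sorting receptor SORLA, which steers the amyloid precursor protein away from late endosomes; the gene lies on chromosome 9 (chr9:41964720-42124297, minus strand, GRCm38). Sorl1 was at 34.5, 35.7, 33.9 and 39.7 RPKM in knockouts, at 46.2, 41.5, 32.5 and 36.6 RPKM in heterozygotes, at 31.1, 40.7, 36.7 and 31.5 RPKM in P301S+ TREM2+/+ mice and at 35.4, 28.3, 10.6 and 23.9 RPKM in controls. Only control replicate 1 reached the range of the tau transgenic mice (31.1 to 46.2 RPKM). P301S+ TREM2+/+ mice averaged 35.0 ± 4.56 RPKM and controls 24.5 ± 10.4 RPKM (SD, n = 4 each), differing by 0.60 on the log2 scale (SE 0.27, unadjusted p = 0.04, limma adjusted p = 0.349). Over all 12 tau transgenic mice the mean was 36.7 ± 4.53 RPKM and the difference 0.67 (SE 0.22, unadjusted p = 0.00812, limma adjusted p = 0.282). With that outlying control left out it was 0.32 (SE 0.13, unadjusted p = 0.026, limma adjusted p = 0.483), and the difference of P301S+ TREM2+/+ mice alone was 0.25 (SE 0.15, unadjusted p = 0.118, limma adjusted p = 0.345).

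Of the 8 genes, Picalm and Sorl1 were those with a higher mean in P301S+ TREM2+/+ mice at an unadjusted p under 0.05, so the 250 bases before their annotated starts are shown, as RefSeq gives them for GRCm38.p6. Capitals mark the E-box CACGTG, the site of basic helix-loop-helix factors such as the lysosomal and autophagy regulator TFEB.
Picalm, chr7:90129963-90130212, plus strand: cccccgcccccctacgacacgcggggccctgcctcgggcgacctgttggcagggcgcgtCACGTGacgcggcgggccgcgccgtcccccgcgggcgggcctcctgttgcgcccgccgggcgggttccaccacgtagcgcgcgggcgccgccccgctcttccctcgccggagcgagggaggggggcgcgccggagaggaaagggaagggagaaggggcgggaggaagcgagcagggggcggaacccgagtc
Sorl1, chr9:42124298-42124547, minus strand: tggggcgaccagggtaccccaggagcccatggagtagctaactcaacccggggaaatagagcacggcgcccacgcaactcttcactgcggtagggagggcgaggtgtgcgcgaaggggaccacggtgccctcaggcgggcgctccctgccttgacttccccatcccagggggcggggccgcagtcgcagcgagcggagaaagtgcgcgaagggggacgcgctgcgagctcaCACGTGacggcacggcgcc
The search was for CACGTG, which reads the same on both strands. Picalm held 1 match, starting 191 bases before the start. Sorl1 held 1 match, starting 19 bases before the annotated gene start, whereas the RefSeq window of its other start (chr9:42077214-42077463) held none. Of 32851 such windows in the table, 6.02% held CACGTG. The windows given for Fermt2, Cd2ap and Mef2c held no CACGTG. A match describes the letters and says nothing of binding in these mice.

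Cd2ap encodes an adaptor that ties receptors and endosomes to cortical actin; the gene lies on chromosome 17 (chr17:42792951-42876665, minus strand, GRCm38). Cd2ap was at 2.41, 2.25, 3.05 and 3.07 RPKM in knockouts, at 2.60, 3.57, 4.88 and 4.80 RPKM in heterozygotes, at 2.74, 2.35, 5.84 and 3.43 RPKM in P301S+ TREM2+/+ mice and at 2.32, 3.02, 2.69 and 3.71 RPKM in controls. The knockouts were the lowest and the least spread, and 3 of the 4 heterozygotes were above every knockout. The knockout mean was 2.70 ± 0.43 RPKM and the heterozygote mean 3.96 ± 1.09 RPKM (SD, n = 4 each), differing by -0.40 on the log2 scale (SE 0.18, unadjusted p = 0.0389, limma adjusted p = 1). Against P301S+ TREM2+/+ mice, at 3.59 ± 1.56 RPKM, the knockout difference was -0.26 (SE 0.18, limma adjusted p = 0.632). P301S+ TREM2+/+ mice differed from controls, at 2.94 ± 0.59 RPKM, by 0.18 (SE 0.18, limma adjusted p = 0.652), and by 0.22 (SE 0.19, limma adjusted p = 0.522) when control replicate 3 was left out. In each of the 3 tau transgenic genotypes both males were above both females, and in controls the sexes overlapped. That pattern, with 2 mice per genotype and sex, was noticed after the values were seen and was not tested. The share of all genes that show it was not computed, so it is not read as a sex effect. The values rest on 31 to 274 reads per library.

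Ptk2b encodes the calcium-activated tyrosine kinase PYK2, a relative of focal adhesion kinase that is abundant in forebrain neurons; the gene lies on chromosome 14 (chr14:66153257-66281052, minus strand, GRCm38). Ptk2b was at 84.8, 65.1, 68.0 and 92.1 RPKM in knockouts, at 94.3, 94.8, 69.7 and 68.0 RPKM in heterozygotes, at 85.5, 86.0, 64.1 and 81.3 RPKM in P301S+ TREM2+/+ mice and at 70.3, 139, 167 and 106 RPKM in controls. Controls 2, 3 and 4 were above all 12 tau transgenic mice, while control replicate 1 lay among them. P301S+ TREM2+/+ mice averaged 79.2 ± 10.3 RPKM and controls 121 ± 42.0 RPKM (SD, n = 4 each), differing by -0.54 on the log2 scale (SE 0.20, unadjusted p = 0.0181, limma adjusted p = 0.293). All 12 tau transgenic mice, at 79.5 ± 11.8 RPKM, also differed from controls by -0.54 (SE 0.17, unadjusted p = 0.00543, limma adjusted p = 0.282). After control replicate 3 was left out, the control mean was 105 ± 34.5 RPKM (n = 3), and the difference was -0.41 (SE 0.16, unadjusted p = 0.0195, limma adjusted p = 0.463).

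Excitatory neurons are a main source of PYK2 in cortex. Their 7 markers, none of them at 0 in any library, summed to 4900 to 8620 CPM in knockouts, 3030 to 8680 in heterozygotes, 3950 to 6930 in P301S+ TREM2+/+ mice and 6180 to 18000 in controls. The highest sums, 18000 and 12000, were in control replicates 3 and 2, the libraries with the most Ptk2b. The part of neuronal content in the Ptk2b values was not tested. Control replicate 4 had 106 RPKM of Ptk2b at 6180 CPM of these markers, and control replicate 1 had 70.3 RPKM at 6990.

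**Figure D2:**
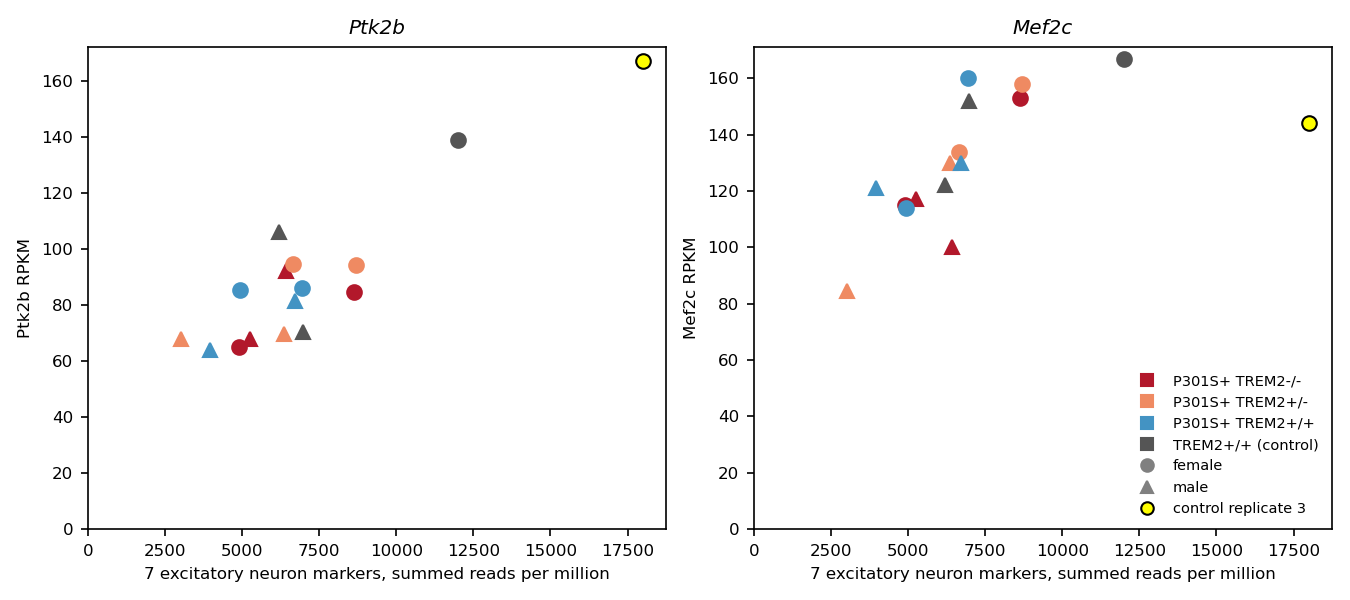
Level of Ptk2b (left) and Mef2c (right) in RPKM against the summed CPM of 7 excitatory neuron markers, 1 point per library; colour is genotype, circles are females, triangles males, and control replicate 3 is yellow. The 2 libraries with the highest marker sums, 12000 and 18000, were control females and had the most Ptk2b, at 139 and 167 RPKM, whereas Mef2c was at 167 and 144 RPKM there.

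Fermt2 encodes kindlin-2, which activates integrins at focal adhesions; the gene also lies on chromosome 14 (chr14:45458795-45530118, minus strand, GRCm38). Fermt2 was at 31.4, 28.4, 33.2 and 33.5 RPKM in knockouts, at 29.6, 29.0, 31.6 and 30.6 RPKM in heterozygotes, at 22.3, 25, 35.6 and 27.9 RPKM in P301S+ TREM2+/+ mice and at 30, 29.7, 5.42 and 26.5 RPKM in controls. Apart from control replicate 3, the lowest values were those of the 2 P301S+ TREM2+/+ females. P301S+ TREM2+/+ mice averaged 27.7 ± 5.74 RPKM and controls 22.9 ± 11.8 RPKM (SD, n = 4 each), differing by 0.48 on the log2 scale (SE 0.35, limma adjusted p = 0.527). The control mean without control replicate 3 was 28.7 ± 1.92 RPKM (n = 3) and the difference turned to -0.04 (SE 0.12, limma adjusted p = 0.87). Knockouts averaged 31.6 ± 2.34 RPKM, and their difference from P301S+ TREM2+/+ mice was 0.20 (SE 0.35, limma adjusted p = 0.878). Astrocytes are a known source of kindlin-2 in brain. The 7 astrocyte markers, none at 0, summed to 6990 to 9640 CPM in knockouts, 8040 to 10100 in heterozygotes, 7770 to 11100 in P301S+ TREM2+/+ mice and 5860 to 7440 in controls. Their part in the Fermt2 values was not tested.

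Mef2c encodes a MADS-box transcription factor that shapes synapse number in cortical neurons and restrains activation of microglia; the gene lies on chromosome 13 (chr13:83504034-83667080, plus strand, GRCm38). Mef2c was at 153, 115, 117 and 100 RPKM in knockouts, at 158, 134, 130 and 84.6 RPKM in heterozygotes, at 114, 160, 121 and 130 RPKM in P301S+ TREM2+/+ mice and at 152, 167, 144 and 122 RPKM in controls. The order of the means was 121 ± 22.6 RPKM in knockouts, 127 ± 30.6 RPKM in heterozygotes, 131 ± 20.4 RPKM in P301S+ TREM2+/+ mice, against 146 ± 18.5 RPKM in the 4 controls (mean ± SD of 4 mice). Each neighbouring pair in that order overlapped. The difference between P301S+ TREM2+/+ mice and controls was -0.16 (SE 0.18, limma adjusted p = 0.70), and that of all 12 tau transgenic mice from controls was -0.22 (SE 0.15, limma adjusted p = 0.41). Control replicate 3 was inside the range of the other libraries, and without it the second difference was -0.27 (SE 0.14, limma adjusted p = 0.548). The 2 lowest Mef2c values, 84.6 and 100 RPKM, were in heterozygote replicate 4 and knockout replicate 4. The first of these 2 also had the lowest sum of excitatory neuron markers, 3030 CPM.

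Abi3 encodes a subunit of the WAVE complex, which drives branching of actin filaments, and in brain it is largely a gene of microglia; it lies on chromosome 11 (chr11:95830074-95842476, minus strand, GRCm38). Abi3 was at 0.404, 0.769, 0.957 and 1.75 RPKM in knockouts, at 0.585, 1.27, 2.45 and 1.67 RPKM in heterozygotes, at 1.48, 1.37, 0.387 and 1.07 RPKM in P301S+ TREM2+/+ mice and at 1.06, 0.899, 0.656 and 0.744 RPKM in controls. The spread within each tau transgenic genotype was wide, with a coefficient of variation of 58.5% in knockouts, 52.2% in heterozygotes, 45.8% in P301S+ TREM2+/+ mice; it was 21.1% in controls. Each value rests on 8 to 72 reads. For the extremes, the exact 95% Poisson interval was 1.89 to 3.13 RPKM in heterozygote replicate 3 and 0.167 to 0.762 RPKM in P301S+ TREM2+/+ replicate 3, for counting error only. Differences of genotype means ranged from -0.33 (SE 0.25) in knockouts against heterozygotes to 0.24 (SE 0.25) in heterozygotes against P301S+ TREM2+/+ mice, both with a limma adjusted p = 1. The second of these was 0.01 without P301S+ TREM2+/+ replicate 3 and 0.42 without heterozygote replicate 1. P301S+ TREM2+/+ mice differed from controls in Abi3 by 0.14 (SE 0.25, limma adjusted p = 0.809). Without control replicate 3 that difference was 0.13 (SE 0.27, limma adjusted p = 0.819). Near its 3' end Abi3 overlaps Phospho1 and Zfp652 on the opposite strand. No source used states a strand setting for the counting, and reads of these genes cannot be told apart.

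In heterozygotes and P301S+ TREM2+/+ mice the sexes were on opposite sides for Abi3. Among females, heterozygotes averaged 0.925 RPKM and P301S+ TREM2+/+ mice 1.43 RPKM, a log2 difference of -0.36; among males, heterozygotes averaged 2.06 RPKM and P301S+ TREM2+/+ mice 0.726 RPKM, a difference of 0.84 (2 mice per mean). The female minus male difference was -1.20 (SE 0.40, unadjusted p = 0.0111, limma adjusted p = 0.658). On scales that compress low genes less it was -2.16 with a pseudocount of 0.1 (SE 0.77, limma adjusted p = 0.684). By limma-voom it was -2.01 (SE 0.71, adjusted p = 0.525). On the log2(RPKM + 1) scale it was smallest, at -0.91, without P301S+ TREM2+/+ replicate 3, which left 1 male in that arm. Its limma adjusted p ranged from 0.132 to 1 when single libraries were left out, lowest without control replicate 3, and without heterozygote replicate 3, the male with raised Xist, the difference was -1.02 (SE 0.45, limma adjusted p = 1). For complete loss, knockout females averaged 0.587 RPKM against 1.43 RPKM in P301S+ TREM2+/+ females, and knockout males 1.35 RPKM against 0.726 RPKM in P301S+ TREM2+/+ males. That female minus male difference was -1.08 (SE 0.40, unadjusted p = 0.0195, limma adjusted p = 0.601). Unadjusted p-values under 0.05 were reached by 6.48% of all genes for the first of these differences and by 7.24% for the second, and 0 genes (0%) passed the adjusted threshold in either. Sexes on opposite sides without overlap were found for 2 of the 8 (Abi3 and Picalm) in heterozygotes against P301S+ TREM2+/+ mice, against 10.6% of all genes. They were found for 0 of the 8 in knockouts against P301S+ TREM2+/+ mice (5.83% of all genes) and for 0 of the 8 in P301S+ TREM2+/+ mice against controls (5.63%).

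Microglial markers were summed beside Abi3. The 8 markers, none at 0 in any library, summed to 323 to 559 CPM in knockouts, 318 to 813 in heterozygotes, 436 to 539 in P301S+ TREM2+/+ mice and 324 to 900 in controls. Heterozygote males, at 2.45 and 1.67 RPKM of Abi3, had the highest marker sums among tau transgenic mice, 813 and 616 CPM, while knockout replicate 4 lay between them for Abi3, at 1.75 RPKM. Per 1000 reads of these markers there were 8.84 ± 3.11 Abi3 reads in knockouts, 10.7 ± 2.16 in heterozygotes, 8.78 ± 3.65 in P301S+ TREM2+/+ mice, and for the controls 8.86 ± 4.23 (SD, n = 4 each). Control replicate 3 (2.97) and P301S+ TREM2+/+ replicate 3 (3.35) were the lowest on this measure, and the other 14 libraries were between 5.09 and 13. The part of microglial content in the Abi3 values was not tested further.

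**Figure D3:**
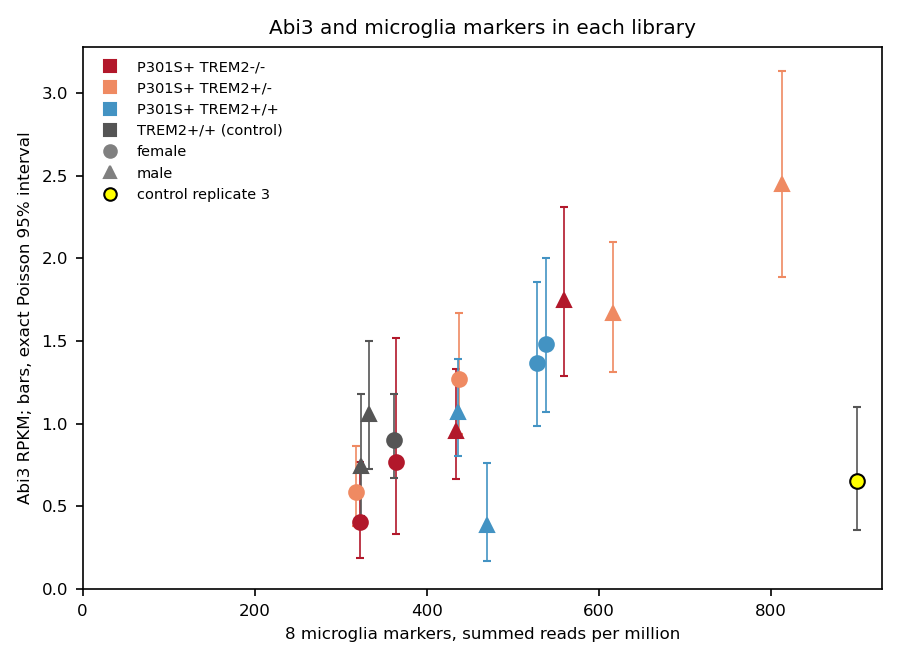
Abi3 RPKM with its exact 95% Poisson interval (vertical) against the summed CPM of 8 microglia markers (horizontal), 1 point per library; colour is genotype, circles are females, triangles males. Heterozygote replicate 3 had the most Abi3, 2.45 RPKM, at 813 marker CPM, while control replicate 3 (yellow) had 0.656 RPKM at 900.

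The tau transgene was also read over all 12 transgenic mice against the 4 controls, which share those controls with the comparison above and are not a second test of it. Of the 8 genes 0 passed the adjusted threshold, against 0.00832% of all genes. The median difference of the 8 was 0.40, beside 0.07 over all genes, and 6 of the 8 were positive, beside 59.2% of all genes. An unadjusted p under 0.05 was reached by 4 of the 8 (Bin1, Picalm and Sorl1 higher, Ptk2b lower), against 16.4% of all genes (10.5% higher and 5.92% lower). Without control replicate 3 the median was 0.18, beside 0.01 over all genes, and 3 of the 8 (Picalm, Sorl1 and Ptk2b) kept an unadjusted p under 0.05, against 9.75% of all genes. Ranges that did not overlap were found for 0 of the 8 and for 0.275% of all genes.

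**Figure D4:**
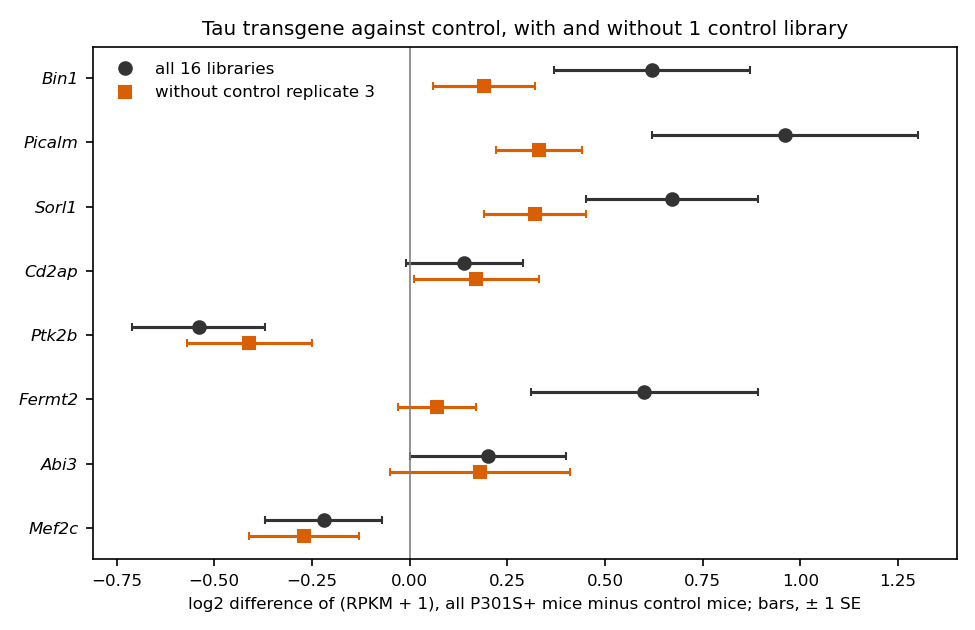
Log2 difference of (RPKM + 1) between all tau transgenic mice and control mice for each of the 8 genes, with all 16 libraries (black circles) and without control replicate 3 (orange squares); bars are 1 SE either side. Picalm was at 0.96 with and 0.33 without that library, Fermt2 at 0.60 and 0.07, and Ptk2b at -0.54 and -0.41.

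Loss of Trem2 alleles was compared within tau transgenic mice, where control replicate 3 takes no part in the means and enters through the shared spread. For partial loss, 0 of the 8 passed, as did 0% of all genes, and 0 of the 8 against 2.70% of all genes had an unadjusted p under 0.05. The differences ran from -0.08 (Mef2c, SE 0.18) to 0.24 (Abi3, SE 0.25), with a median of 0.09 beside 0.01 over all genes. For complete loss, 0 of the 8 passed, against 0.00832% of all genes, and 0 of the 8 against 9.90% of all genes had an unadjusted p under 0.05. Those differences ran from -0.26 (Cd2ap, SE 0.18) to 0.20 (Fermt2, SE 0.35), with a median of -0.06 beside -0.02 over all genes. The Cd2ap value was -0.10 without P301S+ TREM2+/+ replicate 3, its highest library. Knockouts against heterozygotes had 0 of the 8 past the threshold, as for 0% of all genes, and 1 of the 8 (Cd2ap) against 3.42% of all genes had an unadjusted p under 0.05. Ranges that did not overlap were found for 0 of the 8 in each of the 3 comparisons, beside 2.85% of all genes for partial loss, 7.62% for complete loss and 5.37% for knockouts against heterozygotes. With control replicate 3 left out of the shared spread, an unadjusted p under 0.05 was reached by 0 of the 8 for partial loss (10.3% of all genes), 0 for complete loss (23.7%) and 1, again Cd2ap, for knockouts against heterozygotes (7.76%).

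The 95% intervals show what sizes these data leave possible. For knockouts against P301S+ TREM2+/+ mice the interval was -0.69 to 0.63 for Bin1, -0.98 to 0.80 for Picalm, -0.53 to 0.62 for Sorl1 and -0.55 to 0.95 for Fermt2. It was narrower for Cd2ap (-0.65 to 0.12), Ptk2b (-0.47 to 0.40) and Mef2c (-0.50 to 0.27), and -0.62 to 0.45 for Abi3. A p that missed the threshold therefore does not show that the genotypes were alike. Without control replicate 3 the SE for complete loss was 0.12 in place of 0.42 for Picalm and 0.11 in place of 0.35 for Fermt2, with the same differences of -0.09 and 0.20.

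**Figure D5:**
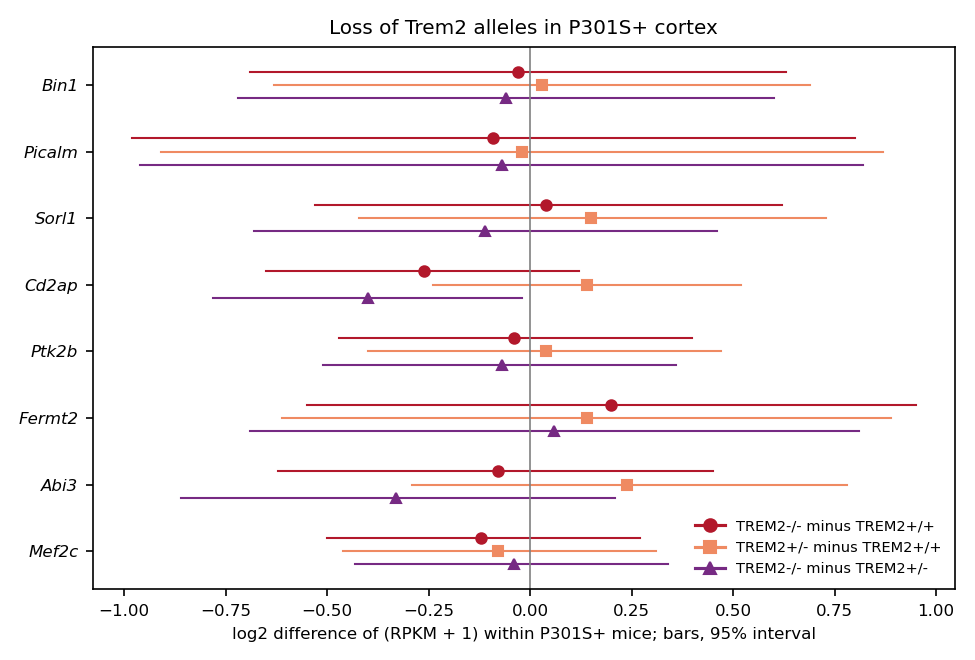
Log2 difference of (RPKM + 1) within tau transgenic mice for knockouts minus P301S+ TREM2+/+ mice (red circles), heterozygotes minus P301S+ TREM2+/+ mice (orange squares) and knockouts minus heterozygotes (purple triangles); bars are 95% intervals. All intervals cross 0 except that of Cd2ap in knockouts minus heterozygotes, which ran from -0.78 to -0.02.

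Picalm was the 1 member beside Abi3 with a sex difference at an unadjusted p under 0.05. Among females, P301S+ TREM2+/+ mice averaged 71.8 RPKM and controls 25.2 RPKM, a log2 difference of 1.88; among males, P301S+ TREM2+/+ mice averaged 58.4 RPKM and controls 53.8 RPKM, a difference of 0.12 (2 mice per mean). The female minus male difference was 1.76 (SE 0.73, unadjusted p = 0.0335, limma adjusted p = 0.355), beside 13.5% of all genes with an unadjusted p under 0.05 and 1 gene (0.00832%) past the adjusted threshold. That gene was Gm10373, named after its value was seen. Leaving out either control female leaves a single library in that arm, which is then assumed to vary like the other groups. Without control replicate 3 the Picalm difference was 0.61 (SE 0.23, limma adjusted p = 0.182). With control replicate 3 as the only control female it was 2.91 and passed the adjusted threshold, as did 41.7% of all genes, so it describes that library.

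Genes that work with these 8 were read from 5 lists in P301S+ TREM2+/+ mice against controls, and no gene of any list passed the adjusted threshold. Of 26 tested partners in clathrin-mediated endocytosis, 8 were positive and 18 negative, with a median of -0.10 beside 0.06 over all genes, of which 57.1% were positive. The smallest p-values were those of the epsins Epn2 and Epn1, the early endosome GTPase gene Rab5c and the endophilin gene Sh3gl1. Epn2 averaged 28.9 ± 9.66 RPKM in P301S+ TREM2+/+ mice, against 42.4 ± 4.80 RPKM in controls (log2 difference -0.59, SE 0.19, limma adjusted p = 0.269). Rab5c was at 41.1 ± 4.42 RPKM in P301S+ TREM2+/+ mice, against 109 ± 86.6 RPKM in controls. Sh3gl1 was at 4.2 ± 3.14 RPKM in P301S+ TREM2+/+ mice, against 8.57 ± 3.42 RPKM in controls. Epn1 was at 56.4 ± 6.52 RPKM in P301S+ TREM2+/+ mice, against 94.6 ± 43.2 RPKM in the 4 controls (mean ± SD of 4 mice). The differences of these 4 were negative, those of Bin1 and Picalm positive. Over all 12 tau transgenic mice they were -0.33 for Epn2, -0.99 for Rab5c, -0.36 for Sh3gl1 and -0.56 for Epn1. Of these 4, only Sh3gl1 had a knockout mean above that of controls, at 10.1 ± 2.2 RPKM. Rab5c was at 234 RPKM and Epn1 at 157 RPKM in control replicate 3 alone. Without that library the Rab5c difference was -0.67 in place of -1.09 and that of Epn1 -0.40 in place of -0.65. Sh3gl1 was at 3.5 RPKM in that library, without which the Sh3gl1 difference was -1.26 in place of -1.01. That of Epn2 was -0.53 in place of -0.59. Leaving control replicate 3 out gave 13 positive and 13 negative partners, with a median of -0.01.

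Of 20 retromer subunits and sorting receptors, 13 were positive and 7 negative, with a median of 0.14, and without control replicate 3 they split into 10 and 10 with a median of 0. Snx27, the retromer adaptor, averaged 20.3 ± 8.01 RPKM in P301S+ TREM2+/+ mice, against 28.1 ± 3.38 RPKM in controls (log2 difference -0.52, SE 0.18, limma adjusted p = 0.269), and Rab7, the late endosome GTPase gene, was at 47.9 ± 1.28 RPKM in P301S+ TREM2+/+ mice, against 78.4 ± 39.4 RPKM in controls. Rab7 was at 136 RPKM in control replicate 3, without which its difference was -0.30 in place of -0.58. Sorcs2, a receptor of the same family as Sorl1, was at 3.86 ± 1.11 RPKM in P301S+ TREM2+/+ mice, against 2.85 ± 0.309 RPKM in controls. Its relative Sort1 was at 47.4 ± 9.39 RPKM in P301S+ TREM2+/+ mice, against 37.4 ± 6.01 RPKM in controls, a difference of 0.33, or 0.20 without control replicate 3. Of 26 tested adhesion and actin partners, 19 were positive and 7 negative, with a median of 0.12, and without control replicate 3 there were 15 positive and 11 negative with a median of 0.11. Brk1, a small subunit of the WAVE complex that holds Abi3, averaged 414 ± 50.5 RPKM in P301S+ TREM2+/+ mice, against 282 ± 82.3 RPKM in controls (log2 difference 0.60, SE 0.21, limma adjusted p = 0.277), with 167 RPKM in control replicate 3 and a difference of 0.36 without it. Nckap1l, the WAVE subunit of blood-derived cells and microglia, was at 2.40 ± 0.928 RPKM in P301S+ TREM2+/+ mice, against 1.34 ± 0.196 RPKM in controls. Among focal adhesion genes, Pxn was at 1.87 ± 0.239 RPKM in P301S+ TREM2+/+ mice, against 1.25 ± 0.233 RPKM in controls, and Src at 10.4 ± 1.56 RPKM in P301S+ TREM2+/+ mice, against 14.3 ± 3.46 RPKM in controls. For this list the differences over all 12 were 0.44 for Brk1, 0.46 for Nckap1l, 0.18 for Pxn and -0.36 for Src.

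Of 5 tested genes of the Mef2 family and the class IIa histone deacetylases, which bind and repress Mef2 proteins, 3 were positive and 2 negative, with a median of 0.09, and without control replicate 3 there were 2 positive and 3 negative with a median of 0. Hdac5 averaged 24.9 ± 6.00 RPKM in P301S+ TREM2+/+ mice, against 15.7 ± 5.10 RPKM in controls (log2 difference 0.66, SE 0.22, limma adjusted p = 0.269). Hdac4 was at 2.97 ± 0.284 RPKM in P301S+ TREM2+/+ mice, against 6.26 ± 5 RPKM in controls, where control replicate 3 was at 13.6 RPKM; the difference was -0.65 with that library and -0.25 without it. Hdac7 was at 5.46 ± 1.06 RPKM in P301S+ TREM2+/+ mice, against 8.76 ± 4 RPKM in controls, a difference of -0.50 that was -0.30 without control replicate 3, and Hdac9 at 5.36 ± 0.463 RPKM in P301S+ TREM2+/+ mice, against 4.49 ± 0.692 RPKM in controls. Over all 12 tau transgenic mice the differences were 0.42 for Hdac5, -0.63 for Hdac4, -0.52 for Hdac7 and 0.10 for Hdac9. Of 27 tested orthologues of other Alzheimer risk loci, 17 were positive and 10 negative, with a median of 0.08, and without control replicate 3 there were 18 positive and 9 negative with a median of 0.12. The smallest p-values there were those of Bckdk, a kinase of branched-chain amino acid breakdown, the protease gene Adamts1, the myeloid gene Ms4a6d and the lysosomal protease gene Ctsb. Bckdk averaged 15.1 ± 2.68 RPKM in P301S+ TREM2+/+ mice, against 9.86 ± 0.941 RPKM in controls (log2 difference 0.56, SE 0.14, limma adjusted p = 0.265). Adamts1 was at 7.02 ± 1.53 RPKM in P301S+ TREM2+/+ mice, against 3.41 ± 1.54 RPKM in controls, Ms4a6d at 2.58 ± 0.272 RPKM in P301S+ TREM2+/+ mice, against 0.955 ± 0.67 RPKM in controls, and Ctsb at 124 ± 23.2 RPKM in P301S+ TREM2+/+ mice, against 78.2 ± 32.9 RPKM in controls. Control replicate 3 was at 1.21 RPKM for Adamts1, 0 RPKM for Ms4a6d and 33.6 RPKM for Ctsb. Without it the difference was 0.67 in place of 0.93 for Adamts1, 0.70 in place of 0.95 for Ms4a6d and 0.43 in place of 0.76 for Ctsb. Over all 12 tau transgenic mice and all 4 controls the differences were 0.29 for Bckdk, 0.89 for Adamts1, 0.87 for Ms4a6d and 0.72 for Ctsb.

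The closest relatives of the 8 genes gave no called difference either. Snap91, the neuronal paralogue of Picalm, averaged 145 ± 10.4 RPKM in knockouts, 147 ± 16 RPKM in heterozygotes, 145 ± 24.9 RPKM in P301S+ TREM2+/+ mice, against 111 ± 62.6 RPKM in controls. Amph, the paralogue of Bin1, was at 106 ± 3.43 RPKM in knockouts, 102 ± 12.4 RPKM in heterozygotes, 118 ± 28.7 RPKM in P301S+ TREM2+/+ mice, against 104 ± 11.9 RPKM in controls. Bin2, the paralogue found mainly in blood-derived cells and microglia, was at 1.5 ± 0.561 RPKM in knockouts, 1.74 ± 0.672 RPKM in heterozygotes, 2.25 ± 0.904 RPKM in P301S+ TREM2+/+ mice, against 1.33 ± 0.526 RPKM in controls. Like Picalm, Snap91 had its lowest mean in controls, with a wide spread there, and the Amph means stayed within 1 SD of each other in the genotypes with the wider spread. The part of control replicate 3 in the control means of Snap91, and of Abi2 below, was not tested.

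Ptk2, which encodes focal adhesion kinase, averaged 20.1 ± 1.70 RPKM in knockouts, 15.5 ± 2.44 RPKM in heterozygotes, 12.3 ± 4.37 RPKM in P301S+ TREM2+/+ mice, against 15.7 ± 5.56 RPKM in controls. Knockouts did not overlap P301S+ TREM2+/+ mice for Ptk2 (log2 difference 0.72, SE 0.25, unadjusted p = 0.0131, limma adjusted p = 0.426), where 7.62% of all genes had groups that did not overlap. Abi1 averaged 56.6 ± 7.78 RPKM in knockouts, 43.0 ± 2.92 RPKM in heterozygotes, 37.6 ± 14.6 RPKM in P301S+ TREM2+/+ mice, against 46.0 ± 9.78 RPKM in controls, with a difference of 0.65 for complete loss (SE 0.22, unadjusted p = 0.00942, limma adjusted p = 0.426). For both, the paralogue's mean was highest in knockouts, which was not the order of Ptk2b or Abi3. Abi2 was at 51.7 ± 6.85 RPKM in knockouts, 48.1 ± 4.15 RPKM in heterozygotes, 51.4 ± 3.38 RPKM in P301S+ TREM2+/+ mice and 40.8 ± 14.5 RPKM in controls. Sh3kbp1, the paralogue of Cd2ap, was at 16.3 ± 2.14 RPKM in knockouts, 15.4 ± 2.08 RPKM in heterozygotes, 16.3 ± 3.51 RPKM in P301S+ TREM2+/+ mice and 13.7 ± 3.55 RPKM in controls. Mef2a was at 25.9 ± 3.23 RPKM in knockouts, 27.6 ± 2.90 RPKM in heterozygotes, 25.5 ± 5.76 RPKM in P301S+ TREM2+/+ mice and 23.7 ± 4.34 RPKM in controls. The highest group mean was that of knockouts for the sorting receptors Sorcs1, at 5.97 ± 0.871 RPKM against a lowest mean of 4.26 ± 1.40 RPKM in P301S+ TREM2+/+ mice, and Sorcs3, at 21.6 ± 0.90 RPKM against a lowest mean of 17.6 ± 5.04 RPKM in controls. Fermt1, Fermt3, Mef2b and Mef2d had group means of at most 0.797 RPKM and were not tested.

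The genes whose order over the 16 libraries was most like each member's were found by Spearman's rho among 7993 genes with a mean of at least 5 RPKM. All libraries share the mice, the preparation and control replicate 3, so rho is a description and is given again over the other 15. The 3 nearest genes were picked on all 16 libraries, so the value over 15 of them is not an independent check. The rho that picking the highest of so many genes gives by chance was not computed. Ptk2b was closest to Map6 (0.92 over 16 libraries, 0.91 over 15), Banp (0.91, 0.89) and Pde2a (0.90, 0.88). Fermt2 was closest to Rab31 (0.92, 0.90), 5031425E22Rik (0.92, 0.90) and Sat1 (0.89, 0.87), and Bin1 to Pigz (0.90, 0.88), Acot9 (0.87, 0.84) and Alkbh3 (0.86, 0.82). Abi3 was closest to Ccl6 (0.89, 0.89), a chemokine gene of myeloid cells, then Pgd (0.86, 0.85) and Zcchc24 (0.84, 0.85). Mef2c was closest to Camk2n1 (0.87, 0.89), which encodes an inhibitor of the synaptic kinase CaMKII, then A830010M20Rik (0.86, 0.85) and Cpne9 (0.86, 0.89). Picalm was closest to Zfp120 (0.88, 0.85), Ppp1r3c (0.86, 0.82) and Trim2 (0.86, 0.82), Sorl1 to Api5 (0.84, 0.80), Ube2z (0.83, 0.80) and Hdlbp (0.77, 0.72), and Cd2ap to Zfp36l1 (0.85, 0.89), Sephs2 (0.80, 0.83) and Eci2 (0.80, 0.82). Cd2ap and Abi3 averaged under 5 RPKM and could not be found as neighbours; none of the other 6 members was among the 3 nearest genes of another.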

How the data were processed

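Cortical RNA of 16 mice was profiled; groups come from the sample descriptions, sex from the gender label, and replicates are numbered by accession order. The files deposited by the authors hold 1 RPKM value per gene and library. The headers do not name the unit; it was read from the values, which were whole multiples of 1 read for 100.0% of the 18911 genes above 0 (tolerance 0.01 reads or a relative 2e-06), with reads per library from 2.55 to 14.47 M. STAR, HTSeq, edgeR, limma and mm10 are named, without versions or roles, per the submitters' processing notes. No paper was used. Each file lists 24060 gene rows, and 1 line per file that names no gene was left out.

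Tests used limma 3.58.1 in R 4.3.3 with a trended prior. The response was log2(RPKM + 1) and 12015 genes averaging 1 RPKM or more were kept, with 4 genotypes and sex as terms (11 residual degrees of freedom). All 8 members passed this filter. Sex differences were contrasts of 8 genotype-by-sex means (8 residual degrees of freedom). P-values were Benjamini-Hochberg adjusted across those genes, and 0.05 was the threshold. The script was tested on simulated data with independent noise and no outlying library. That test therefore does not cover the effect of control replicate 3. Dividing by gene length does not suit 3' reads, which is why levels of different genes were not compared. The reads carry no molecular identifiers that would tell molecules from PCR copies, so intervals cover counting error only.

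Members and gene lists (18 lists, 201 genes) were chosen with earlier results of these data known. Named were all members, their paralogues, the 3 nearest genes by Spearman's rho, Trem2, and per pathway list the 4 genes with the smallest unadjusted p for P301S+ TREM2+/+ mice against controls. Pathway genes so named numbered 20. A second value is printed for the 8 whose difference moved most, by ratio, without control replicate 3, and for Adamts1 and Ms4a6d. Gene positions are from GENCODE annotation of GRCm38 and promoter windows from RefSeq GRCm38.p6. Bin1 is given without position or sequence, and no promoter window was used for Ptk2b and Abi3. Alternatives were other pseudocounts, filters, covariates, weights and scalings, leaving libraries out, and limma-voom on recovered reads. The last, the Abi3 ratio to marker reads and the lists without control replicate 3 were chosen after seeing the data.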

Additional observations from a re-analysis of the deposited data

Results flagged for a closer look

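Fermt2 was at 5.42 RPKM in control replicate 3, against 26.5 to 30 RPKM in the other controls, a gap of 0.86 of that genotype's range, above Dixon's 95% critical value for 4 samples. In all, 32 sets of 4 libraries were examined, and chance flags about 1 in 20. The same library lay below every other library for Bin1, Picalm, Sorl1 and Fermt2, as it did for 41.6% of all genes tested.

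In heterozygotes against P301S+ TREM2+/+ mice, females and males were on opposite sides with no overlap for Abi3, with a female minus male difference of -1.20 (SE 0.40, limma adjusted p = 0.658), and for Picalm, with a difference of -0.36 (SE 0.73, limma adjusted p = 0.98). For Picalm, heterozygote females averaged 61.9 RPKM and P301S+ TREM2+/+ females 71.8 RPKM, while heterozygote males averaged 65.2 RPKM and P301S+ TREM2+/+ males 58.4 RPKM (2 mice per mean). Neither difference passed the adjusted threshold, and 10.6% of all genes tested showed sexes on opposite sides in this comparison.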

How the results depend on the processing

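No member passed an adjusted threshold of 0.05 for a genotype comparison under any setting run; the lowest adjusted p was 0.0998 (Ptk2b, array weights, -0.49, P301S+ TREM2+/+ mice against controls). Of 360 member values under settings other than leaving out single libraries, 349 did not reverse sign, with values that rounded to 0 counted among them. Changing the filter, dropping sex or fitting only the genotypes compared cannot move a difference in this balanced design. Values under those settings were thus fixed in advance and are no evidence of stability. The cause of the changes was not tested. With array weights, which gave control replicate 3 a weight of 0.04, 4 member differences changed sign, all near 0: Fermt2 against controls -0.05, Bin1 for partial loss -0.01, Ptk2b for complete loss 0.01 and Mef2c for knockouts against heterozygotes 0.06. Without control replicate 3 and both P301S+ TREM2+/+ females these became Abi3 against controls -0.32, partial loss of Picalm 0.16, Cd2ap -0.03 and Fermt2 -0.03, and complete loss of Bin1 0.01, Picalm 0.10 and Abi3 0.41.

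Counts of genes called over all genes, by limma, changed as follows. Array weights gave 197 for P301S+ TREM2+/+ mice against controls, 690 for complete loss, 5 for knockouts against heterozygotes, 29 for all tau transgenic mice, and 0, 273 and 444 for the sex differences in the P301S effect, partial and complete loss. Fits of only the genotypes compared gave 7 for complete loss, 1 for knockouts against heterozygotes, and 0, 134 and 437 for the sex differences. Without a filter there were 0 for complete loss, 0 for all tau transgenic mice and 3 for the sex difference in partial loss. A filter at 5 RPKM gave 0 for the sex difference in the P301S effect, and limma-voom gave 0 for it and 0 for complete loss. Without the 3 libraries named above there were 0 for complete loss, 44 for knockouts against heterozygotes and 2 for all tau transgenic mice.

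Leaving out 1 library at a time gave 0 to 5 genes for P301S+ TREM2+/+ mice against controls and 0 to 14 for complete loss (most without control replicate 3), 0 to 2 for knockouts against heterozygotes and 0 to 2 for all tau transgenic mice. For the sex differences it gave 1 to 5012 (most without control replicate 2), 0 to 385 and 0 to 568 (both most without control replicate 3). Members whose sign changed ranged, against controls, from -0.04 to 0.78 for Fermt2 and, over all tau transgenic mice, from -0.02 to 0.22 for Cd2ap. For partial loss the ranges were -0.09 to 0.15 for Bin1, -0.16 to 0.15 for Picalm, -0.01 to 0.12 for Ptk2b and -0.19 to 0.07 for Mef2c. For complete loss they were -0.15 to 0.08 for Bin1, -0.22 to 0.08 for Picalm, -0.02 to 0.14 for Sorl1, -0.20 to 0.11 for Ptk2b and -0.32 to 0.06 for Abi3. For knockouts against heterozygotes they were -0.18 to 0.02 for Bin1, -0.16 to 0.02 for Picalm, -0.23 to 0.08 for Ptk2b, -0.01 to 0.13 for Fermt2 and -0.19 to 0.04 for Mef2c.

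The count tests planned for recovered reads were not run, because the deposited unit is RPKM, and limma-voom on those reads was run instead. No paired analysis was possible because the labels number the mice consecutively and share no replicate number between genotypes. No batch is given, so a batch that followed the numbering cannot be told apart from genotype. Depth limits Abi3 (8 to 72 reads) and Cd2ap (31 to 274 reads) most.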
